A study of Mus musculus with 6 samples.

Results

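Tenascin-C, fibronectin and 5 integrin subunits were followed across the 6 arrays of the series, with 7 of 7 genes measured among 9490 genes that had a row with a single symbol. The genes were Tnc, Fn1, Itga5, Itga8, Itga11, Itgb3 and Itgb5, each matched by its exact symbol, and each had a single row. They were picked with the difference between the groups already known: the integrins were those with the smallest p among integrin genes in an earlier comparison of the same arrays, while the series title names tenascin-C. Their levels and differences are therefore given as a description, with no test. Of the integrin subunits, Itgb5 was the last inside that choice, with a log2 difference (TNE minus TPIN) of -2.43, and Itga10 lay just outside, at -1.02.

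The arrays held RNA of cultured stem-like cells of prostate cancer from TRAMP mice, in which viral T antigens are expressed from a promoter active in prostate epithelium. There were 3 TNE samples, from prostates of mice with neuroendocrine tumours whose age the labels do not give, and 3 TPIN samples, from prostates with intraepithelial neoplasia of mice aged 10 to 11 weeks. All 6 cultures carried the TRAMP transgene and grew in serum-free medium to which EGF and FGF2 had been added. The labels do not say whether a culture was a clone or a pool of animals, or whether the 3 samples came from different mice, and the free-text description gives intraepithelial neoplasia for TNE samples too. The p-values below therefore rest on a spread that can be technical in part.

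Values are log2 expression after RMA, with the mean ± SD of 3 arrays. Without detection calls a low level is not evidence of absence, and a fold is a ratio on the RMA scale. Over all rows the arrays correlated at 0.825 to 0.917 within TNE, 0.842 to 0.905 within TPIN and 0.549 to 0.733 between the groups. Array medians were 8.82 to 9.10 in TNE, with the lowest on TNE replicate 3, and 8.98 to 9.03 in TPIN. The labelled cell type could be checked only in part, since the deposited rows are part of the array, selected by a rule that no source states. A marker without a row was not measured here, which says nothing of its level. Of 17 epithelial markers, 15 had no row, and Krt8 and Krt18, keratins of luminal epithelium, had 7.59 ± 0.26 and 7.60 ± 0.15 in TNE and 7.92 ± 0.06 and 8.27 ± 0.14 in TPIN. Of 15 neuroendocrine markers, 6 had a row, and of these 3 (Uchl1, Syt1 and Snap25) rose in TNE, where 10.3% of all genes rose. The other 3 did not pass: Eno2 and Pcsk1 had log2 differences of -0.79 and -0.42 and Ncam1 of 0.04. Of 8 endothelial markers 3 had a row, and of these Cdh5 rose (log2 difference 1.62, limma adjusted p = 0.0151). The differences of Tek (-0.67, limma adjusted p = 0.293) and Emcn (-0.21, limma adjusted p = 0.855) were negative, and neither gene passed. None of 3 measured immune markers out of 15 passed. Of 15 measured fibroblast and smooth muscle markers 12 fell in TNE, where 10.2% of all genes fell, and the mean of the list was 7.76 to 8.53 on TNE arrays and 11.46 to 11.83 on TPIN arrays. By TPIN mean, Krt8 and Krt18 lay above 23.5% and 30.7% of all genes. The fibroblast markers Acta2, Col1a1 and Lum lay above 99.7%, 99.5% and 99.3%, and S100a4, Des and Fap above 80.3%, 17.3% and 6.33%. By level, most of the measured fibroblast markers were thus high in TPIN and the measured keratins were not, and which cells gave this RNA was not tested. In bulk RNA of this kind, fewer cells of a type and less RNA per cell cannot be told apart. The part of these markers in the differences below was not tested.

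Tenascin-C is a large glycoprotein of the extracellular matrix that forms star-shaped oligomers. It is made in embryos, in wounds and in tumour stroma and is scarce in most healthy adult tissue. Fibronectin is the soluble glycoprotein that cells pull into fibrils, and much of the early matrix is laid down on it. Cells hold both through integrins, paired alpha and beta chains that span the membrane and join the matrix to actin. The α5β1 integrin is the main receptor for fibronectin, αvβ3 and αvβ5 bind fibronectin or vitronectin, α8β1 binds fibronectin, tenascin-C and nephronectin, and α11β1 binds fibrillar collagen.

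All 7 genes were lower in TNE than in TPIN, and for each of the 7 the 3 TNE arrays lay below the 3 TPIN arrays. Over all genes, the groups did not overlap for 43.8%, with TNE below TPIN for 20.5% and above TPIN for 23.3%. Since the genes were chosen on this contrast, nothing is read from that count. The median log2 difference of the 7 was -2.43, where the median over all genes was -0.02 and 5% of genes lay below -2.24. For the same reason, nothing is read from the place of this median among all genes.

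**Figure D1:**
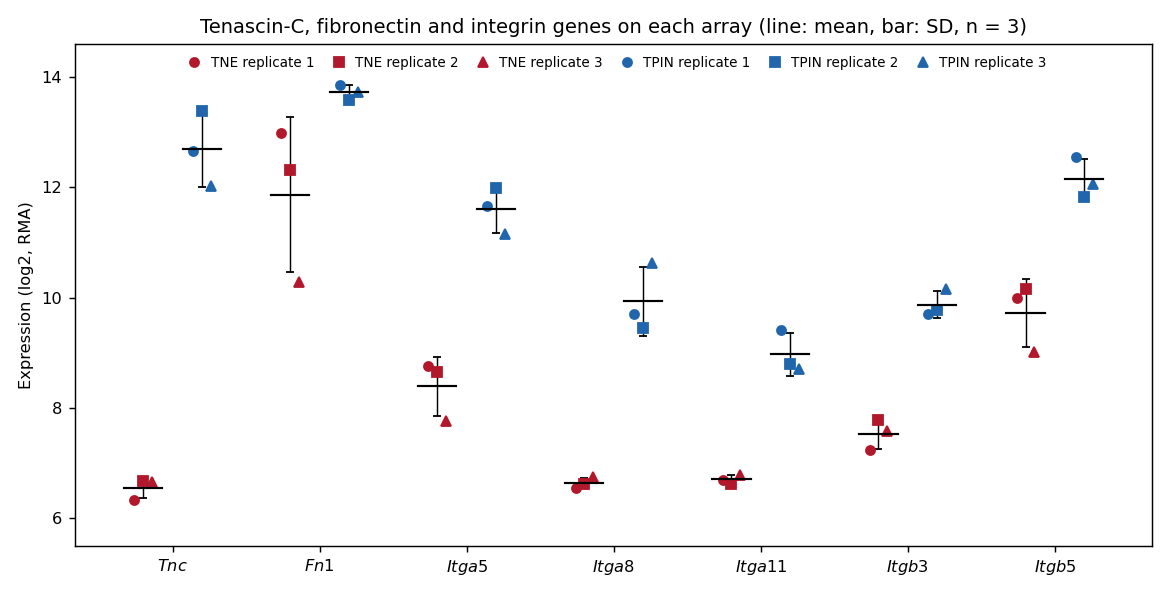
Log2 expression (RMA) of the 7 genes on each array, TNE in red and TPIN in blue, with 1 symbol per replicate, the mean as a line and the SD as a bar (n = 3). Every TNE array lies below every TPIN array for each gene, by 5.34 for Tnc and by 0.59 for Fn1 between the nearest arrays.

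Tnc stood apart in the size of its difference. It had 6.33, 6.68 and 6.65 on TNE replicates 1 to 3, against 12.66, 13.39 and 12.02 on TPIN replicates 1 to 3. The TNE arrays lay within 0.35 of each other, the TPIN arrays within 1.37, and 5.34 separated the highest TNE from the lowest TPIN array. The mean was 6.55 ± 0.19 in TNE and 12.69 ± 0.68 in TPIN, a log2 difference of -6.13 with a moderated standard error (SE) of 0.38, or 70.2-fold lower. Only 2 of 9490 genes had a more negative difference. Leaving out each array in turn gave -6.47 to -5.78.

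Promoter windows of genes that were lower in TNE together are shown for Tnc and for the subunits Itga5 and Itgb5. Each runs from 250 bases before to 50 bases after an annotated start, taken from RefSeq (GRCm38.p6), 5′ to 3′ on the gene's strand. Capitals mark matches on either strand. The letters were those of the TATA box, as TATAAA or as TATATA, and of an EGR site, as GCGGGGGCG. A GC box was searched as GGGCGG, which can overlap the EGR letters. A SMAD site was searched as CAGACA. AP-1 sites (TGANTCA) and a homeodomain core (TAATTA) were searched as well. These motifs were chosen after the windows had been seen.
Tnc (chr4:64046887-64047186, minus strand): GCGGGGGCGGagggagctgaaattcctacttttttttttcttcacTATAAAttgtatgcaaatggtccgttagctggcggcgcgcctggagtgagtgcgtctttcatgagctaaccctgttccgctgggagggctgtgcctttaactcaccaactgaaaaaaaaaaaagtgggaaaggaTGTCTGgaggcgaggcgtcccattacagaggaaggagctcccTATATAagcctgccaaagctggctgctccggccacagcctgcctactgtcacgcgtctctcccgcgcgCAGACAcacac
Itga5 (chr15:103366742-103367041, minus strand): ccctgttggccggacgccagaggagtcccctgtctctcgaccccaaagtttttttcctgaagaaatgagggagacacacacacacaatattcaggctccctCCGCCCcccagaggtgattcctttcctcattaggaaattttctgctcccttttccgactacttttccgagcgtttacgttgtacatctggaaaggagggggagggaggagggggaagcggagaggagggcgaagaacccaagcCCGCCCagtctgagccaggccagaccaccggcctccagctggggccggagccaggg
Itgb5 (chr16:33829415-33829714, plus strand): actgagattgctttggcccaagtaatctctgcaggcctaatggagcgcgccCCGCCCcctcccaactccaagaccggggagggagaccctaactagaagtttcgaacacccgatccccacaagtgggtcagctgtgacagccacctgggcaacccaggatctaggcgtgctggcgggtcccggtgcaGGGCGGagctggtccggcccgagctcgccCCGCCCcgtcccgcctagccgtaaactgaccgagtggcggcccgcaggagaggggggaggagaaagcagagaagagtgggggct

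The Tnc window held TATAAA at base -205 and TATATA at base -29 counted from its start, an EGR match at -250 that overlaps a GC box match at -246, and SMAD matches at -71 and +40. Of 32851 windows in the table, 13.6% held TATAAA, 5.67% TATATA, 2.91% the EGR letters, 35.7% a GC box and 21.0% the SMAD letters. A second Tnc window starts upstream and holds the same TATAAA, EGR and GC box letters. The Itga5 window held GC box matches at -149 and -6, and the Itgb5 window at -199, -63 and -34. In the Itga8 and Itga11 windows none of these letters was found. The letters TGANTCA (7.81% of windows) and TAATTA (5.29%) were found in none of the 6 windows of these 5 genes. A match is a description of letters and not a measured site. The G and C content was 54.0% in the printed Tnc window, 58.7% for Itga5, 59.0% for Itga8, 65.7% for Itgb5 and 68.0% for Itga11, with 47.3% in the second Tnc window and a median of 52.7% over all windows.

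Fn1 had the smallest difference of the 7 and the widest spread in TNE. It had 12.99, 12.32 and 10.29 on TNE replicates 1 to 3, against 13.86, 13.58 and 13.73 on TPIN replicates 1 to 3. The TPIN arrays lay within 0.28 of each other, while the TNE arrays spanned 2.70, with replicate 3 lowest by 2.03 and replicate 1 only 0.59 below the lowest TPIN array. The mean was 11.87 ± 1.41 in TNE and 13.72 ± 0.14 in TPIN, a log2 difference of -1.86 (SE 0.63), or 3.62-fold lower. Without TNE replicate 3 the difference was -1.07, and without TNE replicate 1 it was -2.42.

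The alpha chains of receptors that bind the RGD letters (arginine, glycine, aspartate) of fibronectin followed. Itga5, which encodes the alpha chain of the classical fibronectin receptor, had 8.75, 8.64 and 7.77 on TNE replicates 1 to 3, against 11.66, 11.99 and 11.15 on TPIN replicates 1 to 3. The mean was 8.39 ± 0.54 in TNE and 11.60 ± 0.42 in TPIN, a log2 difference of -3.21 (SE 0.37), or 9.26-fold lower. Itga8, the alpha chain of α8β1, had 6.55, 6.62 and 6.74 on TNE replicates 1 to 3, against 9.71, 9.46 and 10.63 on TPIN replicates 1 to 3. Its TNE values lay within 0.19 of each other and its TPIN values spanned 1.18, with TPIN replicate 3 highest. The mean was 6.64 ± 0.10 in TNE and 9.93 ± 0.62 in TPIN, a log2 difference of -3.29 (SE 0.35), or 9.79-fold lower.

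Itga11, the alpha chain of a receptor for fibrillar collagen found on fibroblasts and related cells, had 6.70, 6.62 and 6.79 on TNE replicates 1 to 3, against 9.41, 8.79 and 8.71 on TPIN replicates 1 to 3. The TNE arrays again lay close together, within 0.17, and 1.92 separated the groups. The mean was 6.70 ± 0.08 in TNE and 8.97 ± 0.39 in TPIN, a log2 difference of -2.27 (SE 0.29), or 4.81-fold lower.

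Both beta chains pair with αv. Itgb3 had 7.24, 7.78 and 7.58 on TNE replicates 1 to 3, against 9.70, 9.77 and 10.15 on TPIN replicates 1 to 3, with a gap of 1.91 between the groups. The mean was 7.53 ± 0.28 in TNE and 9.87 ± 0.24 in TPIN, a log2 difference of -2.34 (SE 0.28), or 5.06-fold lower. Itgb5, the beta chain of a receptor for vitronectin, had 9.99, 10.15 and 9.01 on TNE replicates 1 to 3, against 12.54, 11.82 and 12.07 on TPIN replicates 1 to 3. Here the lowest TPIN array lay 1.67 above the highest TNE array. The mean was 9.72 ± 0.62 in TNE and 12.14 ± 0.37 in TPIN, a log2 difference of -2.43 (SE 0.38), or 5.38-fold lower. With any 1 array left out, the differences of the 5 integrin genes stayed between -3.53 and -2.04.

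The order of arrays within a group was not shared by the 7 genes. On TNE replicate 3, Fn1, Itga5 and Itgb5 were lowest, by 2.03, 0.88 and 0.97 below the next TNE array. Tnc, Itga8, Itga11 and Itgb3 were not lowest there, and each of these 4 varied over at most 0.55 in TNE. By TNE mean these 4 were low, above 6.83%, 7.65%, 8.19% and 18.3% of all genes, and RMA narrows differences near background. Of all 9490 genes, 48.6% were lowest on TNE replicate 3 within TNE, and 18.9% by at least 0.5, a gap picked with the values in view. With 7 genes, no departure from these shares is read. Among TPIN arrays, Tnc and Itga5 were highest on replicate 2 and lowest on replicate 3, whereas Itga8 and Itgb3 were highest on replicate 3.

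**Figure D2:**
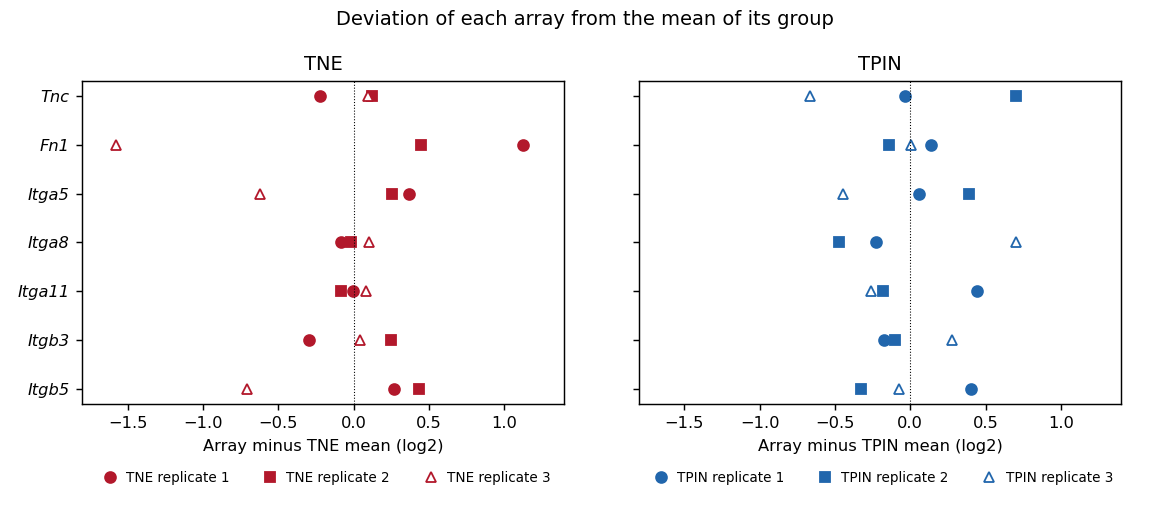
Log2 deviation of each array from the mean of its own group for the 7 genes, TNE on the left and TPIN on the right, with 1 symbol per replicate. Fn1, Itga5 and Itgb5 lie 1.58, 0.62 and 0.70 below the TNE mean on TNE replicate 3, and Itga8 lies 0.70 above the TPIN mean on TPIN replicate 3.

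An integrin subunit reaches the surface only in a pair, so the partner chains were set beside the genes above. Itgb1, the partner of α5, α8 and α11, had 11.97, 11.95 and 11.39 on TNE replicates 1 to 3, against 11.68, 11.73 and 12.49 on TPIN replicates 1 to 3. The groups overlapped, and the log2 difference of -0.19 (SE 0.33) did not pass (limma adjusted p = 0.683). Itgav, the partner of β3 and β5, had 11.03, 9.84 and 7.85 on TNE replicates 1 to 3, against 11.34, 12.04 and 12.16 on TPIN replicates 1 to 3. The TNE arrays spanned 3.18, lowest on replicate 3 as for Fn1, and the log2 difference of -2.27 (SE 0.73) did not pass (limma adjusted p = 0.0613). It passed with array medians set equal (limma adjusted p = 0.0483) and without TNE replicate 1 (limma adjusted p = 0.0154). The adjusted p of Itgb1 stayed above the threshold of 0.05 under the alternatives tried.

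Of the 13 measured integrin subunits other than the 5 above, 2 fell in TNE and none rose, that is 15.4% lower where 10.2% of all genes were lower. These 13 are what was left after the subunits of smallest p had been set aside. The choice lowers their share, so nothing is read from it beside all genes. At an adjusted p under 0.05 these were Itga10 and Itga1, alpha chains of collagen receptors, with 7.63 ± 0.25 and 8.20 ± 0.25 in TNE and 8.65 ± 0.13 and 9.20 ± 0.33 in TPIN (limma adjusted p = 0.0334 and 0.0480). Both calls were lost when TNE replicate 2 or 3 or TPIN replicate 1 or 2 was left out, and Itga1 lost its call under every alternative that left out an array and with a trended, robust variance prior. The alpha chains of laminin receptors had positive differences that did not pass. Itga6 had 11.51, 11.76 and 10.10 on TNE replicates 1 to 3, against 8.01, 7.46 and 10.64 on TPIN replicates 1 to 3 (log2 difference 2.42, SE 0.83, limma adjusted p = 0.0735). TPIN replicate 3 lay inside the TNE range, and without it Itga6 passed (limma adjusted p = 0.0140). Itga3 and Itga7 had 8.61 ± 1.23 and 8.69 ± 1.35 in TNE and 7.38 ± 0.38 and 7.66 ± 0.32 in TPIN, and Itga3 passed without TNE replicate 3 (limma adjusted p = 0.0291). Itga9 and Itga4, whose receptors bind tenascin-C or fibronectin outside the RGD letters, had log2 differences of -1.13 (SE 0.76) and 1.08 (SE 1.17) and did not pass (limma adjusted p = 0.297 and 0.514). The remaining 4 subunits, Itga2, Itgb2, Itgb7 and Itgb8, lay between -1.09 and 0.95 and did not pass.

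**Figure D3:**
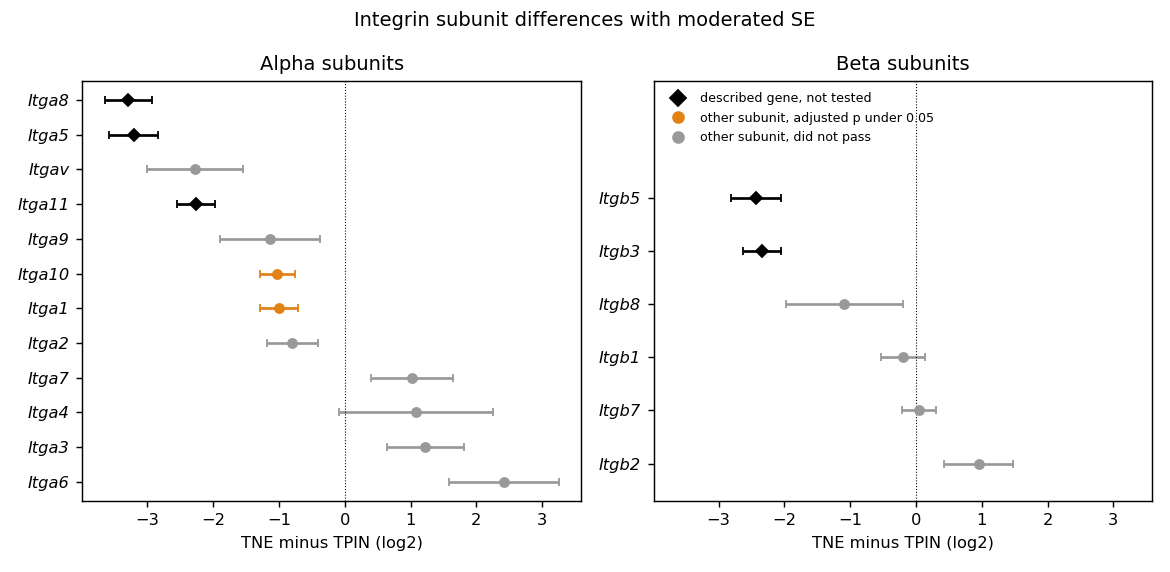
Log2 difference (TNE minus TPIN) of 18 integrin subunits with the moderated SE, alpha chains on the left and beta chains on the right. Diamonds mark the 5 described genes, which were not tested, orange circles Itga10 and Itga1, which passed, and grey circles the subunits that did not pass, from -2.27 for Itgav to 2.42 for Itga6.

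Receptors of other families bind tenascin-C or fibronectin as well, and of 10 such genes 3 fell in TNE and 1 rose, against 10.2% and 10.3% of all genes. The EGF receptor, which EGF-like repeats of tenascin-C can engage, fell furthest: Egfr had 7.25, 7.11 and 7.59 on TNE replicates 1 to 3, against 11.62, 11.54 and 11.87 on TPIN replicates 1 to 3 (log2 difference -4.36, SE 0.27, limma adjusted p = 0.000274). Tlr4, an innate immune receptor that tenascin-C can activate, had 6.73 ± 1.26 in TNE and 9.42 ± 0.45 in TPIN (limma adjusted p = 0.0201). Sdc2, a syndecan with heparan sulfate chains, lay at -2.18 on the log2 scale (SE 0.54, limma adjusted p = 0.0282). Cntn1, a neural adhesion molecule, rose, with 8.50 ± 1.11 in TNE and 6.53 ± 0.52 in TPIN (limma adjusted p = 0.0444). Sdc4, the syndecan that acts with α5β1 on fibronectin, had 9.74 ± 0.86 in TNE and 11.06 ± 0.39 in TPIN and did not pass (limma adjusted p = 0.0763), but did without TNE replicate 1 (0.0382). Anxa2 did not pass (limma adjusted p = 0.222). The count lower was 5 when TNE replicate 1 was left out and 1 when TPIN replicate 1 was, and Cntn1 lost its call when any array other than TNE replicate 1 was left out. Sdc2 lost its call without TNE replicate 2 or 3 or TPIN replicate 1 or 3, and Tlr4 when TPIN replicate 1 or 2 was dropped.

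Among other proteins that the same integrins bind, 11 of 18 measured genes fell in TNE and none rose, where 10.2% of all genes fell. Their median log2 difference was -1.87, against -0.02 over all genes. This list, like the others, was chosen with earlier results of these data known, so its count is a description. Thbs1 (thrombospondin, a matricellular protein) had 9.92 ± 0.50 in TNE and 13.74 ± 0.34 in TPIN, and Fbln5 (fibulin of elastic fibres, with an RGD site) had 7.97 ± 0.23 in TNE and 10.99 ± 0.21 in TPIN (limma adjusted p = 0.00112 for both). Col1a1 and Col1a2, chains of the fibrillar collagen that α11β1 binds, had log2 differences of -3.93 and -4.37 (limma adjusted p = 0.00401 and 0.00464). Adam9 and Ccn1 did not pass (limma adjusted p = 0.273 and 0.0996), but Adam9 did without TNE replicate 1 (0.0413) and Ccn1 without TNE replicate 3 (0.0467). Npnt (nephronectin, a ligand of α8β1, named after its values were seen) had 8.25 ± 0.93 in TNE and 7.89 ± 0.91 in TPIN and did not pass (limma adjusted p = 0.672). The count was 7 without TNE replicate 2. The list holds 3 fibroblast markers, and the mean of the 15 measured fibroblast markers was 7.76 to 8.53 on TNE arrays and 11.46 to 11.83 on TPIN arrays.

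Of 14 measured partners and relatives of tenascin-C and fibronectin in the matrix, 7 fell in TNE, none rose and 7 did not pass, where 10.2% of all genes fell and 10.3% rose. Their median log2 difference was -2.49. Of these genes Dcn is also a fibroblast marker. Postn (periostin, which binds both proteins) and Lox (lysyl oxidase, which crosslinks collagen) had differences about as large as that of Tnc. Postn had 6.60, 6.38 and 7.98 on TNE replicates 1 to 3, against 11.90, 13.83 and 13.43 on TPIN replicates 1 to 3 (log2 difference -6.06, SE 0.60, limma adjusted p = 0.00124). Lox had 5.93, 5.46 and 7.82 on TNE replicates 1 to 3, against 12.56, 12.33 and 12.52 on TPIN replicates 1 to 3 (log2 difference -6.07, SE 0.57, limma adjusted p = 0.00113). On TNE arrays both were highest on replicate 3, where Fn1 was lowest. The proteoglycans Bgn and Dcn had log2 differences of -3.64 and -2.82 (limma adjusted p = 0.000378 and 0.00113). The other measured tenascins, picked out with their values in view, did not pass: Tnn had 6.53 ± 0.07 in TNE and 7.23 ± 0.11 in TPIN, and Tnr had 6.82 ± 0.14 in TNE and 7.31 ± 0.27 in TPIN (limma adjusted p = 0.0766 and 0.221). Fbln1 and Igfbp5 did not pass either (limma adjusted p = 0.104 and 0.511), but Fbln1 did without TNE replicate 3 (0.0172).

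Of 10 measured proteases that can cut tenascin-C or fibronectin, 5 fell in TNE and none rose, where 10.2% of all genes fell and 10.3% rose. Mmp19, Mmp14, which sits in the membrane, and Mmp2, which Mmp14 activates, had log2 differences of -4.38, -3.47 and -4.51 (limma adjusted p = 0.00176, 0.00309 and 0.00531). Ctsb (cathepsin B of the lysosome) had 11.00 ± 0.47 in TNE and 12.48 ± 0.17 in TPIN (limma adjusted p = 0.0170) and lost its call without TNE replicate 2 or TPIN replicate 1. Plau and Mmp13 had log2 differences of -2.67 and -1.88 and did not pass (limma adjusted p = 0.0835 and 0.159), but did without TNE replicate 1. The count was 3 without TNE replicate 2.

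Inside the cell, integrins are tied to actin through talin, kindlins and the proteins that gather on them. Of 40 measured genes of these adhesions 11 fell in TNE (27.5%, against 10.2% of all genes), none rose and 29 did not pass, with a median log2 difference of -0.84. Dab2, an adaptor for the uptake of integrins, had 5.94, 6.05 and 7.88 on TNE replicates 1 to 3, against 11.52, 11.69 and 10.79 on TPIN replicates 1 to 3 (log2 difference -4.71, SE 0.55, limma adjusted p = 0.00219). Tns2 (a tensin), Sorbs3 (vinexin, which binds vinculin) and Lpp (a relative of zyxin) had log2 differences of -2.55, -1.79 and -2.30 (limma adjusted p = 0.00298, 0.00696 and 0.0110). Actn4 and Ilk, the integrin-linked kinase, lay at -0.47 and -0.59 and did not pass (limma adjusted p = 0.344 and 0.177). Tln1 (talin, which binds the beta tail and activates the receptor, named after its values were seen) fell by 1.08 on the log2 scale (limma adjusted p = 0.0444). Its call was not followed under the alternatives. Tln2, the other talin, had a log2 difference of -0.27 and did not pass (limma adjusted p = 0.492). The count was 5 when TNE replicate 2 was left out, 7 when TNE replicate 3 was, 5 when TPIN replicate 1 was and 6 when TPIN replicate 2 was.

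Of 30 measured transcription factors, receptors and signals tied to Tnc transcription, 13 fell in TNE, none rose and 17 did not pass, where 10.2% of all genes fell and 10.3% rose. Their median log2 difference was -1.43. Prrx1, a homeobox factor that can activate Tnc, had 6.94, 7.02 and 7.23 on TNE replicates 1 to 3, against 12.31, 12.53 and 12.19 on TPIN replicates 1 to 3 (log2 difference -5.28, SE 0.26, limma adjusted p = 0.000211). Like Tnc, it lay within a narrow range on the TNE arrays, where its mean was above only 11.7% of all genes. The PDGF receptor Pdgfrb and the interleukin-1 receptor Il1r1, through which inducers of Tnc act, had log2 differences of -4.41 and -5.07 (limma adjusted p = 0.000378 and 0.000888). Gata6, reported to repress Tnc, also had a negative log2 difference, -3.09 (limma adjusted p = 0.00212). Egr1, Fos and Junb, early response factors named after their values were seen, had log2 differences of -2.58, -2.58 and -1.39 (limma adjusted p = 0.0160, 0.00493 and 0.0135). Their calls were not followed under the alternatives. Jun and Fosl1, also of this list, had log2 differences of -0.84 and -1.51 and did not pass (limma adjusted p = 0.134 and 0.183). Hif1a and Rbpj did not pass (limma adjusted p = 0.126 and 0.191), but Hif1a did without TPIN replicate 3 (0.0365). The count was 8 without TPIN replicate 1. Prrx1, Pdgfrb and Pdgfra of this list are also fibroblast markers.

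**Figure D4:**
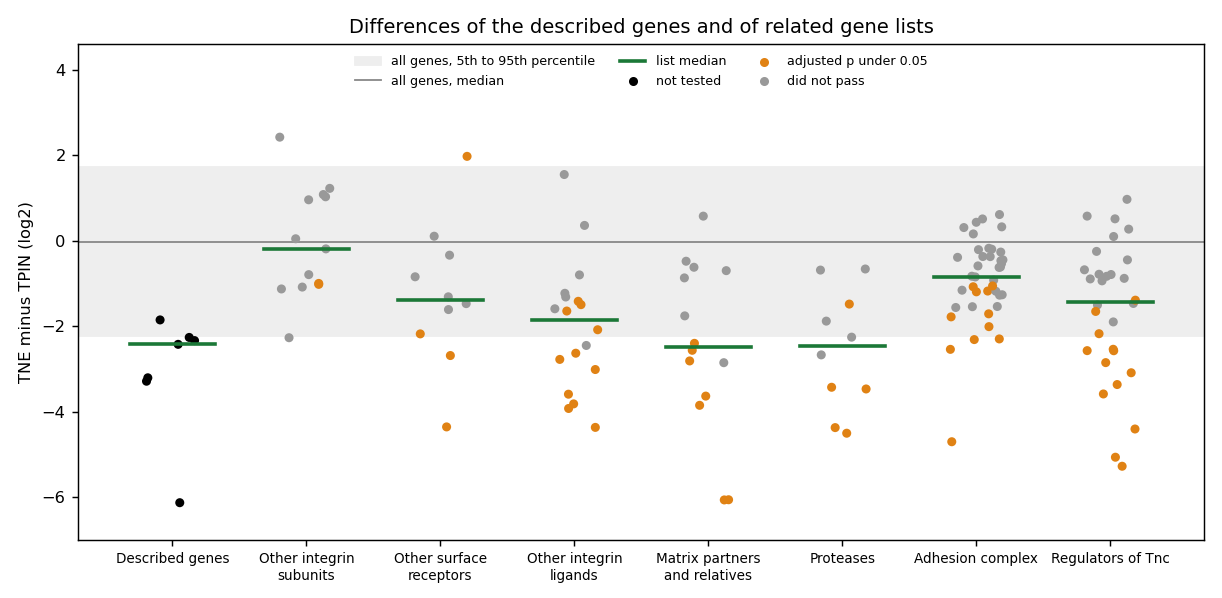
Log2 difference (TNE minus TPIN) of each gene in 8 lists, with the list median in green and, for all genes, the median as a grey line and the 5th to 95th percentile (-2.24 to 1.72) as a grey band. Orange points passed at an adjusted p under 0.05, grey points did not, and the 7 described genes in black were not tested. List medians run from -2.49 for matrix partners to -0.19 for the other integrin subunits, which were left after those of smallest p had been set aside.

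Genes with the most similar profile were found as those with the smallest root mean square difference from each gene over the 6 arrays, after the gene's own mean was taken off. Since the arrays form a TNE and a TPIN group, a small value can come largely from a like difference between them. No shared regulation is read from it. For Tnc the nearest genes were Frzb (a secreted Wnt antagonist), Raet1d (a ligand of the NKG2D receptor) and Prrx1, at 0.41, 0.45 and 0.53 on the log2 scale. Frzb had 6.48 in TNE and 12.01 in TPIN, and Raet1d 5.15 in TNE and 10.97 in TPIN. For Fn1 they were Sntb2, Bnc2 and Cyp2j6 (0.15, 0.19 and 0.20), and for Itga5 they were Nav3, Fstl1 and Twist2 (0.18, 0.26 and 0.30). For Itga8 they were Zfp521, Smim3 and Icam1 (0.13, 0.25 and 0.28), and for Itga11 C1qtnf7, Slc2a10 and Cacnb2 (0.15, 0.18 and 0.19). For Itgb3 they were Fas, Pygl and Dnm3os (0.22, 0.23 and 0.23), and for Itgb5 Fkbp14, Dnm1 and Tlcd2 (0.23, 0.24 and 0.24). None of the 7 genes was among the nearest of another. Of these 21 nearest genes, 4 to 9 were found again when 1 array was left out.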

How the data were processed

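RNA was labelled with biotin after whole-transcript cDNA synthesis and hybridised to 6 single-colour arrays, per the labels' protocols. The authors deposited log2 expression values from RMA (named in the submitters' processing notes), a method that subtracts background, equalises the arrays' distributions and narrows differences near background. Its version is not given in the sources used. The 10361 rows are part of the array, selected by a rule that no source states. Groups came from the sample titles, and replicate numbers follow sample order and pair nothing.

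Rows with 1 symbol in the array annotation gave 9490 genes (highest mean row for 6 genes with several). limma 3.58.1 in R 4.3.3 compared TNE with TPIN over all genes, two-sided, with Benjamini-Hochberg adjustment and a threshold of 0.05. "Rose" and "fell" refer to this threshold. The fit was run on simulated data with independent values and no effect shared within an array. That run does not bear on differences between whole arrays.

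The 7 genes and all lists were chosen with earlier results of these data known. Named were all measured integrin subunits and, per list, up to 4 genes past the threshold in each direction by smallest p and up to 2 of highest mean that did not pass, and 3 nearest genes per described gene. The protein comparison that had been planned was not run, since no protein table was at hand. The number of arrays limits the precision. Alternatives were another normalization, equal medians, a filter on dim rows, another variance prior, a 2-fold minimum, other rows per gene, group medians and leaving out each array.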

Additional observations from a re-analysis of the deposited data

How the results depend on the processing

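The log2 differences of the 7 genes kept their sign under the alternatives that recomputed them. Leaving out an array or taking group medians could not change it, since the groups did not overlap for any of the 7. With 1 array left out, the difference lay between -6.47 and -5.78 for Tnc, -2.42 and -1.07 for Fn1, -3.43 and -2.90 for Itga5, -3.53 and -2.94 for Itga8, -2.40 and -2.04 for Itga11, -2.47 and -2.19 for Itgb3, and -2.65 and -2.08 for Itgb5. The count of all genes called, 1941, was 832 to 2596 with 1 array left out, lowest without TNE replicate 2, and 936 and 1115 without TPIN replicates 1 and 2. With 1 array left out, counts lower in TNE were 0 to 2 for the other integrin subunits, 1 to 5 for the other surface receptors, 7 to 14 for the other integrin ligands, 7 to 8 for the matrix partners, 5 to 12 for the adhesion genes, 3 to 7 for the proteases and 8 to 15 for the regulators of Tnc. Counts higher were 0 to 1 for the other integrin subunits (1 without TNE replicate 3 or TPIN replicate 3) and 0 to 1 for the other surface receptors. With a trended, robust prior 1 other integrin subunit was lower. The median difference of the other integrin subunits was 0.068 without TPIN replicate 3, against -0.19, and -0.34 to 0.068 over the arrays left out. Of the 21 nearest genes 4 to 9 were kept with 1 array left out. Fits without an array hold fewer samples, and the cause of these changes was not tested further. No paired analysis was possible because the labels give no replicate number that the groups share.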

Other observations

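Fn1 and some integrin genes varied widely among the TNE cultures, and others, some of them of low level there, did not. Fn1, Itgav, Itga5 and Itgb5, chosen after their values were seen, were all lowest on TNE replicate 3, by 2.03, 1.99, 0.88 and 0.97 below the next TNE array. Itgav spanned 3.18 on the log2 scale over the TNE arrays and 0.82 over the TPIN arrays, and Fn1 2.70 over the TNE arrays and 0.28 over the TPIN arrays. Itga8, Itgb3 and Itgb1 spanned 0.19, 0.55 and 0.57 over the TNE arrays. Itga8 and Itgb3 were not lowest on TNE replicate 3, but Itgb1 was, by 0.56. By TNE mean, Itga8 and Itgb3 lay above only 7.65% and 18.3% of all genes, and Itgb1 above 97.8%. Fn1, Itgav, Itga5 and Itgb5 lay above 98.2%, 66.3%, 34.3% and 70.1%. RMA narrows differences near background, and its part in these spans was not tested. Of the 13 other integrin subunits 7 (53.8%) were at least 0.5 lower on TNE replicate 3 than on either other TNE array, against 18.9% of all genes. This gap was picked with the values in view, so no departure from the share over all genes is read. At the same gap the share was 40% of the other surface receptors, 33.3% of the other integrin ligands and 30% of the proteases. It was 26.7% of the regulators of Tnc, 25% of the adhesion genes and 7.14% of the matrix partners. Cd44 and Vcl were picked out with their values in view, and most genes of their lists had no such gap. Cd44, a hyaluronan receptor, had 9.90, 8.68 and 6.81 on TNE replicates 1 to 3, against 9.66, 10.50 and 10.08 on TPIN replicates 1 to 3. Vcl (vinculin) had 11.72, 10.47 and 8.33 on TNE replicates 1 to 3, against 11.41, 11.48 and 12.28 on TPIN replicates 1 to 3. The mean of the fibroblast markers was 7.76, 7.92 and 8.53 on TNE replicates 1 to 3, highest where Fn1 was lowest. The array median was 8.82 on TNE replicate 3, against 9.10 and 9.02 on TNE replicates 1 and 2. These are values of single arrays and were not tested.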
